A study of Mus musculus with 10 samples.

Results

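The B-lymphocyte lineage was followed through 8 of its genes in thymic tumours and thymocytes of Ikaros-mutant mice: Igll1, Vpreb1, Pax5, Ebf1, Cd79a, Cd79b, Blnk and Ms4a1. They were taken as every probe set whose single gene symbol in the annotation of the MG_U74Av2 oligonucleotide array is one of these 8 names, which gave 13 of 12488 probe sets and 8 of the 8252 genes that the array reads. Igll1, Vpreb1, Pax5, Blnk and Ms4a1 had 2 probe sets each, and Cd79a, Cd79b and Ebf1 had 1. The array measured total RNA from 10 samples. Of these, 6 were thymic tumours at an advanced stage in homozygotes of IkL, an Ikaros allele of reduced function (hypomorphic). Unfractionated thymocytes of IkL/L mice aged 3 weeks made up 2 samples, and those of wild-type (WT) mice aged 3 weeks the last 2. Tumours and IkL/L thymocytes thus shared the mutation. The thymocyte labels name a C57Bl6 background, and the tumour labels give neither background nor age, so age and the tumour state cannot be told apart.

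Ikaros, encoded by Ikzf1, is a zinc-finger DNA-binding protein that lymphoid precursors need before they commit to the B or the T lineage. In the bone marrow, Ebf1 and Pax5 switch on the B-cell program. Igll1 and Vpreb1 then encode the surrogate light chain of the pre-B-cell receptor, Cd79a and Cd79b its signalling chains, and Blnk the adaptor that carries its signal. Ms4a1 encodes the surface protein CD20 of mature B cells. A normal thymus is made up almost wholly of T-lineage cells, with a small population of B cells, so that total thymus RNA holds little B-lineage message. In such bulk RNA, fewer B-lineage cells and less message per cell cannot be told apart.

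Ikaros recognises DNA with a GGGAA core, and it has been described to bind the promoter of Igll1 in pre-B cells, where it opposes EBF1. The promoters of both surrogate light chain genes and of Cd79a are shown because Igll1 is that described target, Vpreb1 its partner gene and Cd79a 1 of the receptor chains described below. Each is 300 bases of RefSeq sequence on GRCm38.p6, from 250 bases before the annotated start site, on the strand of the gene and in lower case, with GGGAA or its reverse complement TTCCC in capitals. Igll1 lies at chr16:16863936-16864235 (minus strand), Vpreb1 at chr16:16869206-16869505 (minus strand) and Cd79a at chr7:24897247-24897546 (plus strand).
Igll1: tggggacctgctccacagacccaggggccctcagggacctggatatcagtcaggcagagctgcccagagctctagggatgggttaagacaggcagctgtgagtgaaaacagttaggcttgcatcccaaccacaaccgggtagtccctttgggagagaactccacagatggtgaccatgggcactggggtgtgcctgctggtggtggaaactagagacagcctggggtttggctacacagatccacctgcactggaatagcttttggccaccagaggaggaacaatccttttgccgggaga
Vpreb1: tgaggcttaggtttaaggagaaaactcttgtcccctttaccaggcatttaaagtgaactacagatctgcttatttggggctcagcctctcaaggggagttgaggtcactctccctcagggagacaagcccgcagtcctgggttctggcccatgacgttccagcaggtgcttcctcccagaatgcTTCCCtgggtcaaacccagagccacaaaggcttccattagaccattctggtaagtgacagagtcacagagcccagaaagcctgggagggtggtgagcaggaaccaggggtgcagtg
Cd79a: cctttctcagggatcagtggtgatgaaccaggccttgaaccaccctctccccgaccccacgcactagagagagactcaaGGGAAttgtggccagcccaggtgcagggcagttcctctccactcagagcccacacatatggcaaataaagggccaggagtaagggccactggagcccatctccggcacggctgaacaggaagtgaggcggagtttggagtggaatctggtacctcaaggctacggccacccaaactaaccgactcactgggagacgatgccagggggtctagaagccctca
The Igll1 window held 0 matches, the Vpreb1 window 1 at position -66 from the start site and the Cd79a window 1 at position -171. The windows of Pax5 and Blnk also held 1 match each, and the pair of Ebf1 start sites 2 and 1. On either strand 20599 of 32851 promoters of the same length (62.7%) held the letters, so a match is common. A match is no evidence of binding, and a window without one says nothing about Ikaros. The table held a window for 6 of the 8 genes, and binding was not measured.

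Every array had a trimmed mean of 300.2 (2% of values left out at either end), and array medians ran from 79.8 to 113.2. An intensity of 16, the 20th percentile of all values, was used as a floor for low values, and values at or under it have no order. Chip lot 1 held tumour 6 and all thymocyte arrays, and lot 2 tumours 1 to 5. All thymocyte arrays were hybridized on day 1 together with tumours 4 and 6, while day 2 held tumours 1, 2 and 5, and day 3 held tumour 3. Only tumour 6 separates lot from the tumour state, and tumours 4 and 6 are the only ones that separate day from it. The labels do not say that each tumour came from its own mouse, so p-values measure the spread between arrays, which may be partly technical. The mutated gene Ikzf1 had 2 probe sets. The brighter gave 150.6 to 387.6 in tumours, against 559.5 and 263.9 in IkL/L and 625.9 and 400.6 in WT thymocytes. The dimmer gave 40.6 to 187.1 in tumours, against 124.3 and 122.2 in IkL/L and 101.8 and 107.2 in WT thymocytes. Tumour 6 had the highest value of all arrays with the dimmer one. It is not known whether the probes fall in the mutated part of the gene, so these values do not check the genotype.

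Most B-lineage probe sets lay near or below the middle of the intensity range in every group. Of the 130 values of the 13 probe sets, 43 (33.1%) were above the median of their own array. They were 22 of 78 tumour values (28.2%), 10 of 26 values in IkL/L thymocytes (38.5%) and 11 of 26 in WT thymocytes (42.3%). The same share was 83.3% for 12 probe sets of T-lineage genes (Cd3, Cd4, Cd8 and others), the identity that the thymus labels name. It was 11.9% for 21 probe sets of genes restricted to eye, germ line, kidney or tooth, which served as a guide to background. Of these 21, 17 were never above the array median. The probe sets 160533_r_at of Tnp1 and 162019_r_at of Crybb2 were above it on all 10 arrays, so a value above the median need not be message of the named gene. Probes differ in brightness for the same amount of RNA, so these shares say how much of a group is readable and not how much message it has. The plot of median intensities by gene group shows the same values per probe set.

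**Figure D1:**
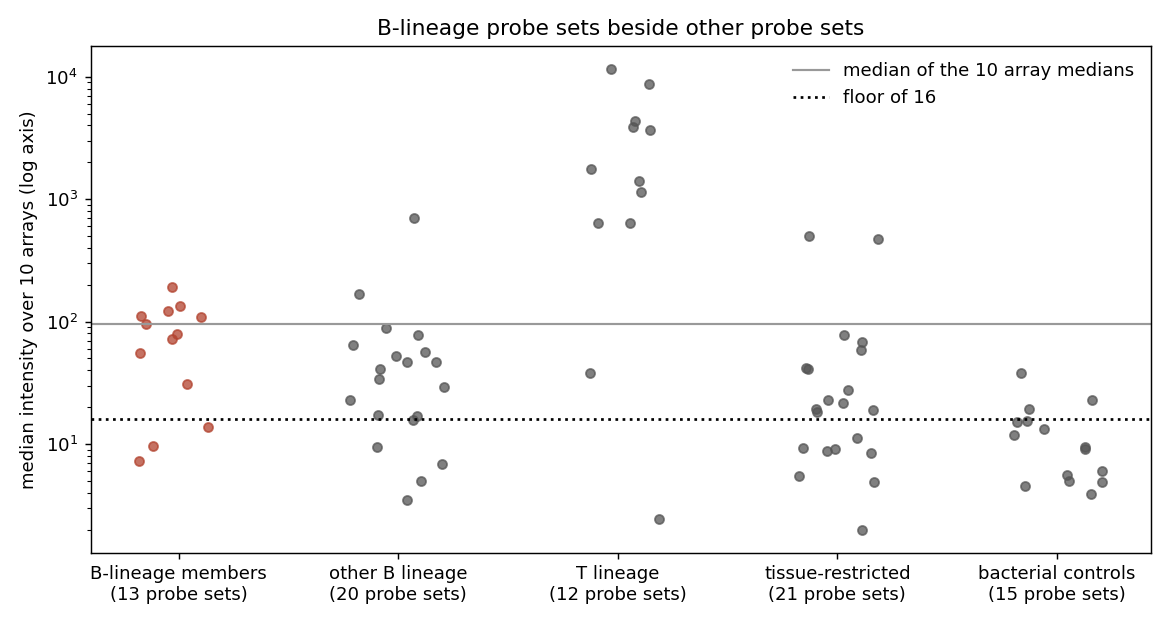
Median intensity over the 10 arrays (log axis) of each probe set, with 1 point per probe set, for the 13 B-lineage probe sets and 4 other groups of probe sets. The B-lineage points lie around and below the grey line, the median of the array medians, and 3 of them lie under the dotted floor of 16, where most bacterial controls lie too.

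The only Ebf1 probe set and 1 probe set each of Pax5 and Vpreb1 were at background in nearly every sample. The Ebf1 probe set 92535_at was at or under the floor on 9 of 10 arrays, the Pax5 probe set 102578_at on 9 and the Vpreb1 probe set 92972_at on 8. None of these was above every bacterial spike-in control of its array on any array. A further 2 were dim. The Igll1 probe set 99429_at was above its array median on 0 arrays and the Ms4a1 probe set 99446_at on 1, and they exceeded all bacterial controls on 6 and 5 arrays. These 5 were not tested, because a probe set had to exceed the array median on at least 2 arrays. The other 8, from 7 genes, were tested. They were above the array median on 7 arrays for Cd79a and Ms4a1 104173_at, on 6 for Cd79b, Blnk 100771_at and Pax5 96993_at, on 5 for Igll1 99428_at, on 3 for Blnk 100772_g_at and on 2 for Vpreb1 161297_f_at.

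**Figure D2:**
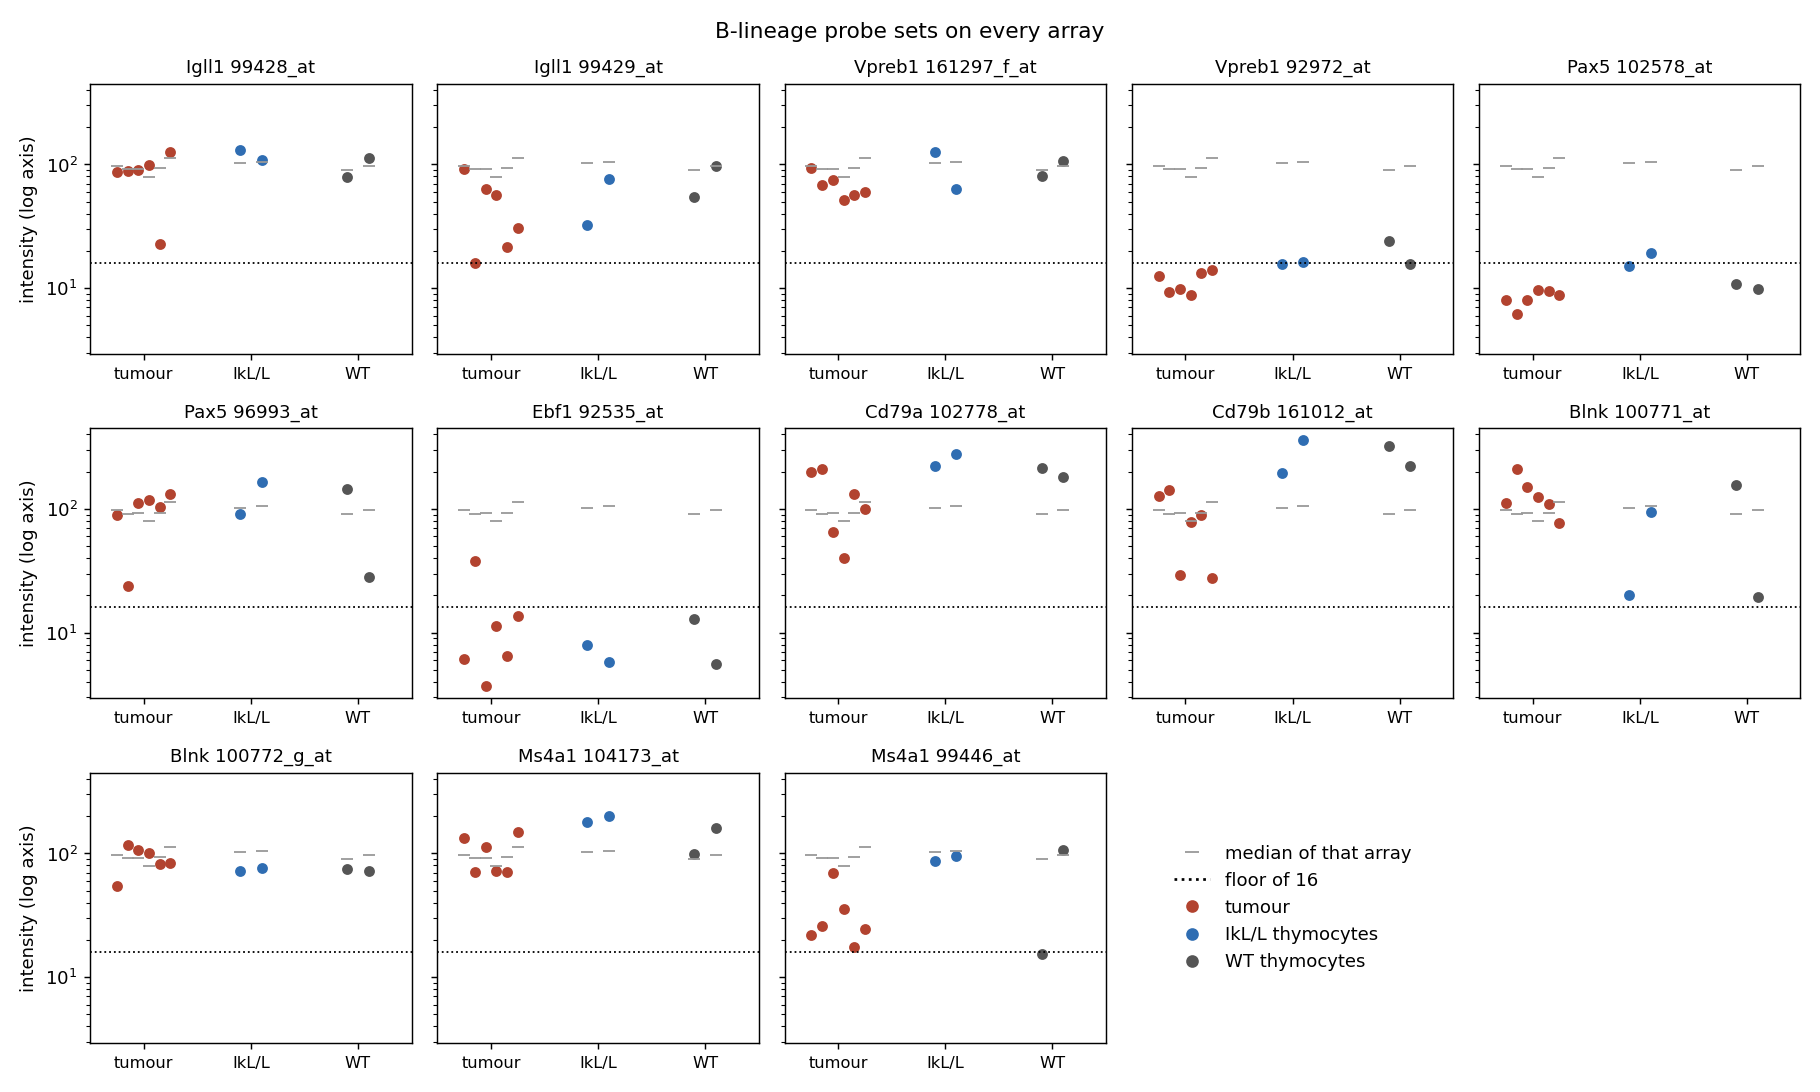
Intensity (log axis) of each of the 13 B-lineage probe sets on every array, with tumours in red, IkL/L thymocytes in blue and WT thymocytes in grey. A grey dash marks the median of that array and the dotted line the floor of 16. Cd79b separates the 6 tumours, at 27.5 to 143.1, from the 4 thymocyte arrays, at 196.0 to 358.0.

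Set against WT thymocytes, tumours had less Cd79b and Cd79a signal on average, and no B-lineage probe set passed the test. The fit was made with limma over all 7172 tested probe sets, of which 135 (1.88%) had a Benjamini-Hochberg adjusted p under 0.05, and 0 of the 8 B-lineage ones were among them. At an unadjusted p under 0.05 there was 1 (Cd79b), where 15.8% of all tested probe sets had such a p. In 1 of the 8 all tumours lay below both WT arrays, again Cd79b, where 8.76% of all tested probe sets did. The log2 difference was negative for 5 of the 8 and for 50.4% of all, with a median of -0.34 over the 8 and -0.006 over all.

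Set against IkL/L thymocytes, which carry the same mutation without a tumour, the same 2 receptor chains and Ms4a1 were dimmer in every tumour. None passed here either: 0 of 8 had an adjusted p under 0.05, against 102 of 7172 (1.42%) among all tested probe sets. At an unadjusted p under 0.05 there were 2 (Cd79b and Ms4a1 104173_at), where 19.1% of all had such a p. All tumours lay below both IkL/L arrays for 3 of the 8, Cd79a, Cd79b and Ms4a1 104173_at, and for 12.1% of all tested probe sets. The difference was negative for 6 of the 8 and for 54.3% of all, with a median of -0.58 over the 8 and -0.052 over all. The comparisons with WT and with IkL/L thymocytes share the 6 tumours and are not independent.

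Between IkL/L and WT thymocytes, before any tumour, no B-lineage probe set passed and Cd79b had nearly the same mean. Of the 8 probe sets 0 were called, at an unadjusted p under 0.05 there were also 0, and every adjusted p was 0.999 by limma. Among all tested probe sets 1 (0.0139%) was called and 3.21% had an unadjusted p under 0.05. Both IkL/L arrays were above both WT arrays for 2 of the 8, Cd79a and Ms4a1 104173_at, where 21.3% of all tested probe sets were. The difference was negative for 3 of the 8 and for 45.9% of all, and ran from -0.34 to 0.94, with a median of 0.17 over the 8 and 0.035 over all. With 2 arrays a group the intervals were wide, so the p-values do not show that levels were equal. A fit without the filter, which includes the 5 dim probe sets, called none of the 13 in any of the 3 comparisons. Of all 12422 probe sets it called 0.62% between tumours and WT thymocytes, 0.692% between tumours and IkL/L thymocytes and 0.121% between IkL/L and WT thymocytes.

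**Figure D3:**
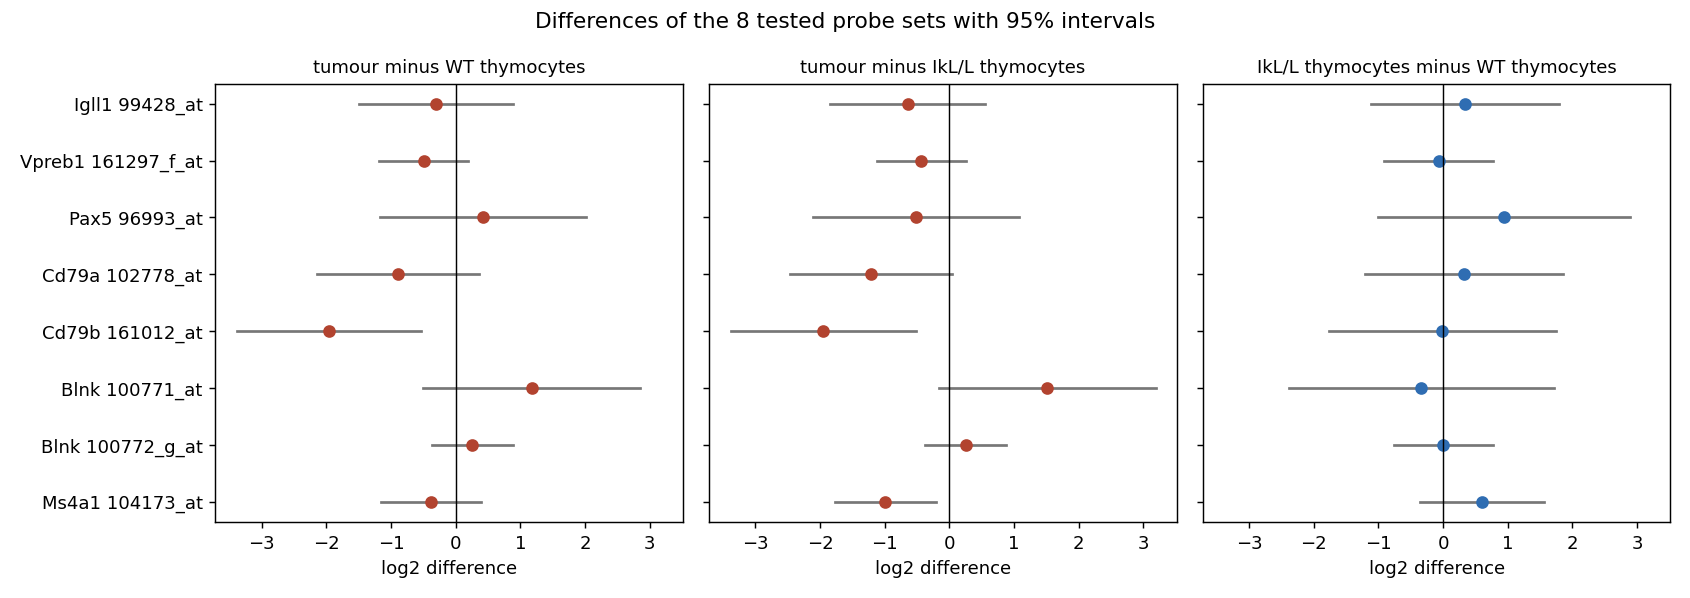
Log2 difference (point) and 95% interval (line) of the 8 tested B-lineage probe sets in each of the 3 comparisons, with the first-named group minus the second. The intervals of Cd79b lie below 0 in both comparisons of tumours, and those of Ms4a1 below 0 only against IkL/L thymocytes. These intervals are not adjusted for the number of probe sets.

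Of the 8, Cd79b showed the largest differences of tumours from both thymocyte groups. Cd79b (chromosome 11, 106311341 to 106314562, all positions in GRCm38.p6), the beta chain of the B-cell receptor complex, gave 127.4, 143.1, 29.1, 78.9, 89.3 and 27.5 in tumours 1 to 6, against 196.0 and 358.0 in IkL/L and 321.4 and 222.5 in WT thymocytes. Every tumour was below every thymocyte array, and tumours 3 and 6 were the lowest. Tumours averaged 82.6 ± 48.2 (SD, n = 6), IkL/L thymocytes 277.0 ± 115.0 and WT thymocytes 271.9 ± 69.9 (SD, n = 2 each). The log2 difference of tumours was -1.97 ± 0.64 (SE) from WT thymocytes, with a 95% interval of -3.39 to -0.54 and an adjusted p of 0.172 by limma. It was -1.95 ± 0.64 from IkL/L thymocytes, with an adjusted p of 0.145. Between the thymocyte genotypes it was -0.01, with an interval of -1.76 to 1.74. Within chip lot 1, where tumour 6 was the only tumour, the difference from WT thymocytes was -3.28 (adjusted p = 0.0875), and within day 1, with tumours 4 and 6, it was -2.52 (adjusted p = 0.198). In lot 1 the single tumour gives no spread of its own, so every p-value within lot 1 takes the spread from the 4 thymocyte arrays and is a weak check on lot. From IkL/L thymocytes the same values were -3.27 (adjusted p = 0.104) and -2.51 (adjusted p = 0.207).

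Cd79a (chromosome 7, 24897497 to 24901858), the partner alpha chain, gave 199.1, 211.7, 65.7, 40.2, 132.1 and 99.2 in tumours 1 to 6, against 221.6 and 277.1 in IkL/L and 215.5 and 181.2 in WT thymocytes. All tumours were below both IkL/L arrays, while tumours 1 and 2 were above the lower WT array. Means were 124.7 ± 69.9 in tumours (SD, n = 6), 249.4 ± 39.2 in IkL/L thymocytes and 198.3 ± 24.3 in WT thymocytes (SD, n = 2 each). On the log2 scale tumours differed by -0.89 ± 0.56 from WT thymocytes (adjusted p = 0.494) and -1.22 ± 0.56 from IkL/L thymocytes (adjusted p = 0.273). IkL/L thymocytes differed from WT thymocytes by 0.33 ± 0.69. Within lot 1 the tumour differences were -0.99 from WT and -1.32 from IkL/L thymocytes, and within day 1 they were -1.65 and -1.97, with adjusted p-values of 0.178 to 0.275. Both chains were highest among tumours in 1, 2 and 5, the tumours of day 2, so that day and these tumours cannot be told apart.

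**Figure D4:**
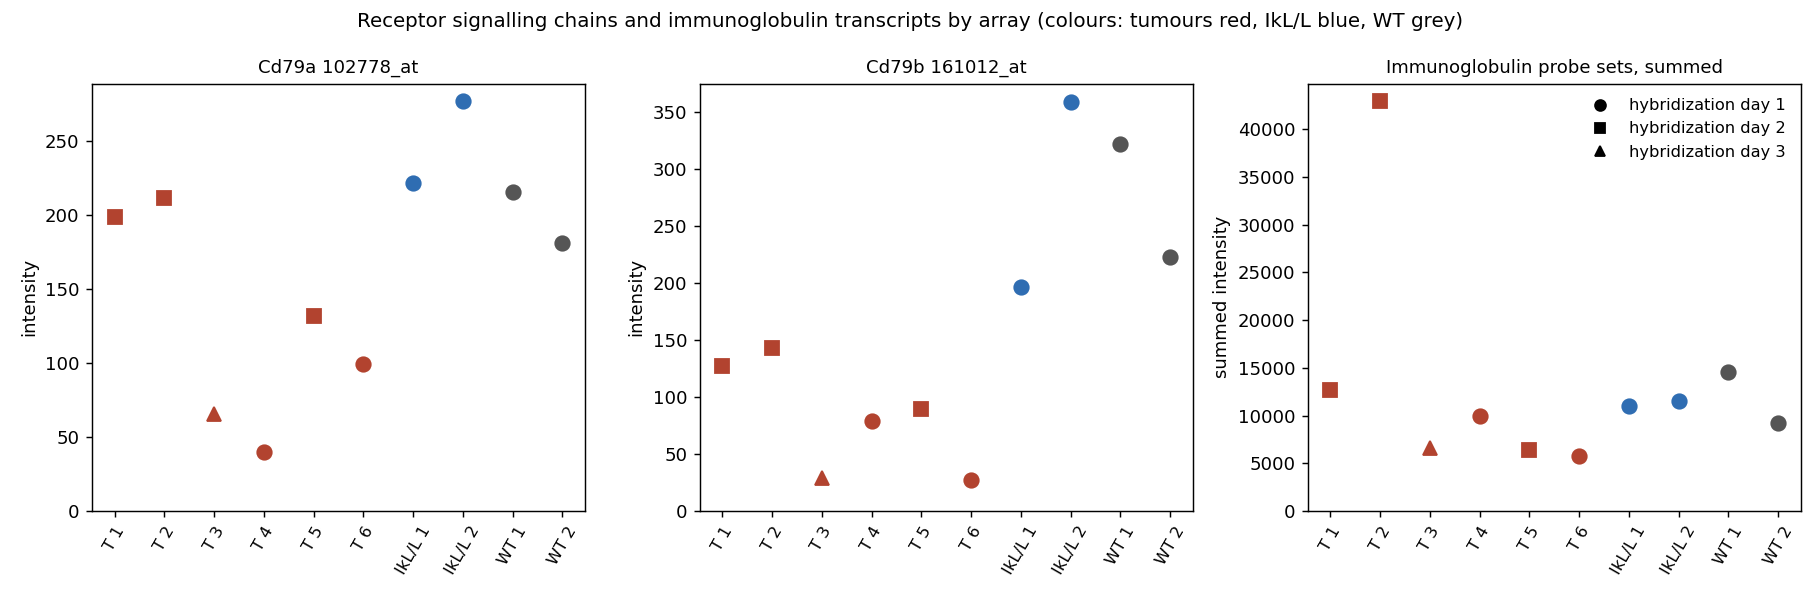
Intensity of Cd79a and of Cd79b, and summed intensity of 64 immunoglobulin probe sets, on each array, with tumours (T) in red, IkL/L thymocytes in blue and WT thymocytes in grey. Symbols give the hybridization day. Tumours 1, 2 and 5 (squares) have the 3 highest tumour values of either chain, and tumour 2 stands apart in immunoglobulin at 42901.

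Markers of other cell types were read on the same arrays, and their part in the Cd79a and Cd79b differences was not tested. Summed over the 12 T-lineage probe sets, intensity was 25480 to 39431 in tumours, 47291 to 51073 in IkL/L thymocytes and 52845 to 53982 in WT thymocytes, and 0 of the 10 tested passed. Most of the gap between the mean sums of tumours and WT thymocytes lay in Cd8a and Cd8b1, with log2 differences from WT thymocytes of -2.11 (adjusted p = 0.086) and -2.25 (adjusted p = 0.17), while Cd3e and Thy1 differed by -0.24 and -0.35. The 8 class II and dendritic-cell probe sets include genes that B cells also express. Their intensities summed to 1492 to 5506 in tumours, 5451 to 6243 in IkL/L thymocytes and 4100 to 7169 in WT thymocytes. Tumour 2, at 5506, was the only tumour that overlapped either thymocyte group. The other tumours, at 1492 to 3178, were below every thymocyte array, and 0 of 8 passed. The 4 erythroid probe sets summed to 1765 to 28862 in tumours, 8459 to 10891 in IkL/L thymocytes and 8942 to 12287 in WT thymocytes, with 0 of 4 passing. The sum over the 16 myeloid probe sets was higher in every tumour. It was 4998 to 8961 in tumours, 2405 to 2472 in IkL/L thymocytes and 2410 to 2881 in WT thymocytes. Not every myeloid gene followed the sum. The untested Fcgr3, named after its value was seen, gave 11 to 34.6 in tumours, against 41.9 to 69.4 on the thymocyte arrays. Of the 10 tested myeloid ones, 3 were higher in tumours than in WT thymocytes and 4 than in IkL/L thymocytes, and the complement gene C1qb (96020_at) was among them in both, with log2 differences of 2.24 from WT and 2.65 from IkL/L thymocytes (adjusted p = 0.0105 and 0.00708). Its other probe set, 162276_i_at, did not pass, and the call was lost within lot 1, within day 1 and without either array of the thymocyte group compared, at 1.73 to 2.77.

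The 12 stromal and epithelial probe sets had called members in both directions, and their part in the B-lineage values was not tested either. They summed to 1457 to 2750 in tumours, 1875 to 2147 in IkL/L thymocytes and 1952 to 2170 in WT thymocytes. Of the 9 tested, 1 was higher and 3 were lower in tumours than in WT thymocytes, and 2 were higher and 2 lower than in IkL/L thymocytes. The epithelial keratin genes Krt8 and Krt18 (94270_at) differed from WT thymocytes by -3.41 (adjusted p = 0.0203) and -2.56 (adjusted p = 0.00392), and Ccl25, a chemokine of thymic epithelium, by -3.26 (adjusted p = 0.0125). The calls held in 12, 15 and 15 of 20 other settings, and without WT array 1 none of them passed, at -2.87, -2.03 and -2.63. Krt18 and Ccl25 were also called against IkL/L thymocytes, at -1.72 and -2.60, in 9 and 10 of 20 other settings. The collagen gene Col1a2 (101130_at), made by fibroblasts, was at least 4.15 log2 units higher in tumours than in WT thymocytes, where both values were under the floor (adjusted p = 0.00731), and 4.05 higher than in IkL/L thymocytes (adjusted p = 0.00934). It passed in 16 of 21 other settings in either comparison, but not without either array of the thymocyte group. Its second probe set, 161156_r_at, did not pass, at -0.16 and -0.81. The other call against IkL/L thymocytes was Col1a1 (94305_at), named after its value was seen, at 3.04 (adjusted p = 0.0381), which 9 of 20 other settings kept.

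Ms4a1 (chromosome 19, 11249679 to 11266149), the CD20 gene, had 1 moderately bright and 1 dim probe set. The brighter, 104173_at, gave 132.3, 70.2, 112.5, 72.7, 70.8 and 148.8 in tumours 1 to 6, against 181.2 and 202.2 in IkL/L and 99.7 and 159.2 in WT thymocytes. IkL/L thymocytes were the highest group, above all tumours and both WT arrays. Tumours differed from IkL/L thymocytes by -0.99 ± 0.35 on the log2 scale (adjusted p = 0.171), and from WT thymocytes by -0.39 ± 0.35 (adjusted p = 0.656). IkL/L thymocytes differed from WT thymocytes by 0.60 ± 0.43. Within lot 1 the difference of tumour 6 from IkL/L thymocytes was -0.36 (adjusted p = 0.693), while within day 1 it was -0.88 (adjusted p = 0.452). The dimmer probe set, 99446_at, gave 22.1, 26.0, 69.7, 35.5, 17.5 and 24.7 in tumours, against 86.6 and 95.2 in IkL/L and 15.5 and 106.5 in WT thymocytes. It too was below both IkL/L values in all tumours, but the WT arrays lay at opposite ends, 1 of them under the floor.

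The surrogate light chain genes showed no separation of the groups. Igll1 (chromosome 16, 16860671 to 16863985) encodes the constant-like part of the surrogate light chain, which stands in for a light chain before one is rearranged. Its probe set 99428_at gave 86.9, 88.4, 90.9, 98.8, 22.9 and 125.8 in tumours 1 to 6, against 131.2 and 108.6 in IkL/L and 78.7 and 112.6 in WT thymocytes. Tumour 5 was far below the rest, and the remaining tumours, at 86.9 to 125.8, lay within the range of the 4 thymocyte arrays. The log2 difference of tumours was -0.30 ± 0.54 from WT thymocytes (adjusted p = 0.839) and -0.64 ± 0.54 from IkL/L thymocytes (adjusted p = 0.512). Without tumour 5 the difference from WT thymocytes was 0.05, and within lot 1 it was 0.42, so its sign is not fixed. The other probe set, 99429_at, gave 91.7, 16, 63.1, 57.1, 21.7 and 30.8 in tumours, against 32.3 and 75.9 in IkL/L and 54.1 and 96.5 in WT thymocytes. The groups overlapped, and the probe sets disagreed by array: the lowest tumour was tumour 2 here and tumour 5 there.

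Vpreb1 (chromosome 16, 16868401 to 16869255) encodes the variable-like part of the surrogate light chain and lies close to Igll1 on the same strand. Its probe set 161297_f_at gave 93.6, 67.9, 75.3, 51.2, 56.9 and 60.2 in tumours, against 125.9 and 63.3 in IkL/L and 81.3 and 107.3 in WT thymocytes. In log2 units the tumour difference was -0.50 ± 0.31 from WT thymocytes (adjusted p = 0.49) and -0.43 ± 0.31 from IkL/L thymocytes (adjusted p = 0.449). The suffix _f marks a probe set whose probes are shared by a family of sequences, so this value is not certain to be Vpreb1 alone. The other probe set, 92972_at, lay between 8.8 and 14.1 in tumours, at 15.8 and 16.4 in IkL/L and at 23.9 and 15.8 in WT thymocytes. All 6 tumours were at or under the floor there, where intensities carry no order.

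The lineage-defining transcription factors were near background or varied widely within a group. Ebf1 (chromosome 11, 44618100 to 45008096) gave 6.1, 37.8, 3.7, 11.3, 6.5 and 13.7 in tumours 1 to 6, against 7.9 and 5.8 in IkL/L and 12.8 and 5.6 in WT thymocytes. Tumour 2 was the only array of the 10 above the floor, and even there its value was under the array's highest bacterial control of 42.9. Pax5 (chromosome 4, 44524748 to 44710694) gave 89.3, 23.8, 112.7, 119.2, 103.7 and 131.3 with probe set 96993_at in tumours, against 90.6 and 165.3 in IkL/L and 144.3 and 28.1 in WT thymocytes. Tumour 2 and 1 WT array were low and the remaining arrays were within 89.3 to 165.3, so the groups overlapped. The log2 difference of tumours was 0.42 ± 0.72 from WT thymocytes (adjusted p = 0.83) and -0.52 ± 0.72 from IkL/L thymocytes (adjusted p = 0.707). Without the low WT array the difference from WT thymocytes was -0.76, so that 1 array set its sign. The second Pax5 probe set, 102578_at, stayed between 6.2 and 9.7 in tumours, at 15.0 and 19.1 in IkL/L and at 10.8 and 9.8 in WT thymocytes. The probe sets thus disagreed, with 1 at background while the other reached the array median on 6 arrays.

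Blnk, the adaptor downstream of the receptor (chromosome 19, 40928927 to 40994221), was the only tested gene with positive fitted differences from both thymocyte groups. It was also the only one with more than 1 probe set tested, and both gave positive differences. With 100771_at it gave 112.5, 210.7, 151.5, 125.2, 108.9 and 77.0 in tumours, against 20.3 and 94.2 in IkL/L and 157.6 and 19.3 in WT thymocytes. In each thymocyte group 1 array was close to the floor, and WT array 1 was above 5 of the 6 tumours. For this probe set tumours differed by a log2 of 1.18 ± 0.75 from WT thymocytes (adjusted p = 0.5) and by 1.51 ± 0.75 from IkL/L thymocytes (adjusted p = 0.304). Without the WT array at 19.3 the difference from WT thymocytes was -0.34. With 100772_g_at, tumours had 54.4, 117.9, 107.1, 101.5, 82.0 and 83.5, against 72.2 and 76.2 in IkL/L and 75.1 and 72.8 in WT thymocytes. Here 5 of the 6 tumours were above all thymocyte arrays and tumour 1 was below them, and the differences were 0.26 ± 0.28 (adjusted p = 0.725) from WT thymocytes and 0.25 ± 0.28 (adjusted p = 0.63) from IkL/L thymocytes. Blnk is also expressed by macrophages. Of the 10 tested myeloid probe sets, 3 were called higher in tumours than in WT thymocytes, those of C1qa, C1qb (96020_at) and C1qc. These calls were kept in 7, 13 and 9 of 21 other settings. The other 7 were not called, and the untested Fcgr3 was lower in every tumour than on any thymocyte array. The part of macrophages in the Blnk level was not tested.

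The 2 probe sets of Blnk, Igll1 and Ms4a1 did not follow each other closely across the arrays. Likeness was measured as the root mean square difference between log2 profiles over the 10 arrays, each centred on its own mean, so that 0 is an identical pattern, among 6447 tested probe sets with 1 symbol. The probe sets of Blnk differed by 1.03, those of Igll1 by 0.87 and those of Ms4a1 by 0.77. For Pax5 and Vpreb1 the measure says nothing on this, because 1 probe set of each was at or under the floor on 9 and 8 arrays. Cd79a and Cd79b differed by 0.81. Each tested probe set of these 3 genes had genes nearer to it than that one, which a search over so many candidates favours. The nearest to Cd79b were Trav9d-3 (0.51), Zc3h15 (0.51) and Gstk1 (0.64). The nearest to Cd79a were Dnah8 (0.35), Nr4a1 (0.37) and Rnf123 (0.37). For Ms4a1 104173_at they were Kcnq1 (0.13), Krt36 (0.16) and Wnt1 (0.18), and for Igll1 99428_at Grn (0.25), Numb (0.27) and Krt17 (0.31). For Vpreb1 they were Vps51 (0.19), Slc35d1 (0.20) and Rcor1 (0.20), and for Pax5 Slpi (0.42), Zfp398 (0.54) and Pmel (0.56). For Blnk they were Fmc1 (0.59), Nr1h3 (0.59) and Pomgnt1 (0.62) with 100771_at, and Dlgap5 (0.16), Cox7a2l (0.17) and Zfp622 (0.17) with 100772_g_at. None of these is another of the 8 genes.

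A further list of 15 B-lineage genes with 20 probe sets was read beside the members. Most of it was dim: 19% of its values were above the array median, against 33.1% for the members. Of its 20 probe sets, 11 were never above it, among them all those of Cd22, Cr2, Fcer2a, Cxcr5, Cd180, Vpreb3 and Fcrla. Of its 7 tested probe sets, 1 was higher in tumours than in WT thymocytes, 0 were lower, and none was called in the other 2 comparisons. The one was Pou2af1, the B-cell coactivator of the octamer-binding factors. Its probe set 93915_at gave 137.3, 105, 56.3, 64.8, 108.3 and 135.2 in tumours, against 53 and 63.2 in IkL/L and 13 and 20 in WT thymocytes. All tumours were above both WT arrays, and the IkL/L arrays lay between, above WT and level with the lowest tumours. The log2 difference of tumours from WT thymocytes was 2.42 ± 0.36 (adjusted p = 0.0105 by limma), with 1 WT value under the floor. IkL/L thymocytes were 1.69 ± 0.44 above WT thymocytes (adjusted p = 0.999), and tumours 0.73 ± 0.36 above IkL/L thymocytes (adjusted p = 0.3). The tumour rise passed the threshold in 13 of 20 other settings, at 1.80 to 2.92. It did not pass within lot 1 (2.92, adjusted p = 0.0574), within day 1 (2.39, adjusted p = 0.11), without WT array 1 (2.26, adjusted p = 0.141) or without WT array 2 (2.58, adjusted p = 0.075). A second Pou2af1 probe set, 162439_at, was at or under the floor on 9 arrays and did not show it.

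Other genes of that list varied between tumours without passing. Cd72, a B-cell surface inhibitor, gave 314.7, 241.1, 29.5, 160.2, 375.1 and 58.2 in tumours, against 45.8 and 54.8 in IkL/L and 46.6 and 19.5 in WT thymocytes. In 5 of the 6 tumours it was above all thymocyte arrays, with a log2 difference from WT thymocytes of 2.23 ± 0.88 (adjusted p = 0.253). Blk, a kinase of B-cell receptor signalling, reached 930.8 in tumour 3 with 95893_at, against 120.3 and 289.3 in IkL/L and 177 and 161.2 in WT thymocytes. Cd37, a tetraspanin of B cells and other leukocytes, lay at 389.3 to 1220.2 in tumours, at 797.2 and 800.4 in IkL/L and at 1274.3 and 630 in WT thymocytes. Neither of them passed, with log2 differences from WT thymocytes of 0.49 and -0.49, and Spib (93388_s_at) did not pass at -1.03. Over the 7, the median difference from WT thymocytes was 0.042, where that of the 8 members was -0.34.

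Immunoglobulin transcripts set tumour 2 apart. The 64 immunoglobulin probe sets summed to 12710, 42901, 6643, 10002, 6446 and 5778 in tumours 1 to 6, against 10985 and 11502 in IkL/L and 14572 and 9219 in WT thymocytes. Tumour 2 held the highest of the 10 values for 36 of the 64, and 29 of the 64 carry a suffix for shared sequences, so they are not independent readings. Igkv6-23 (102156_f_at), a kappa variable segment, gave 12117.7 in tumour 2 and 393.3 to 2391.1 in the other tumours. The brightest immunoglobulin probe set, Ighm 93583_s_at, made up a large part of several sums. It gave 1066.8 to 6979.1 in tumours and 4301.7 to 6694.8 in thymocytes. Ighm 93584_at, named after its value was seen, gave 243.8 to 1135.4 in tumours, below every thymocyte array, at 1283.4 to 1539.1. It did not pass, at -1.35 from WT and -1.46 from IkL/L thymocytes (adjusted p = 0.274 and 0.206 by limma). In the other tested Ighm probe sets tumours overlapped both groups. Tumour 2 also had the highest tumour values of Cd79a, Cd79b, Blnk (both probe sets) and Ebf1, and the lowest of Pax5 96993_at and Ms4a1 104173_at. The Ms4a1 value, 70.2, was close to those of tumour 5 (70.8) and tumour 4 (72.7). The Ebf1 value, 37.8, was under that array's highest bacterial control of 42.9. Without tumour 2 the Cd79b difference was -2.18 from WT thymocytes (adjusted p = 0.136) and -2.17 from IkL/L thymocytes (adjusted p = 0.134), slightly larger than with it. With plasma-cell genes the list held 69 probe sets. Its plasma-cell genes did not move together, and Xbp1, Jchain and Prdm1 are named after their values were seen. Xbp1 was lower in every tumour than on any thymocyte array. It did not pass, at -1.65 from WT and -1.74 from IkL/L thymocytes (adjusted p = 0.16 and 0.122 by limma). Jchain differed from WT thymocytes by 0.37 without passing, and the untested Prdm1 gave 28.6 to 46.1 over all arrays. Of the 69 probe sets, 34 were tested. Both called against WT thymocytes were Sdc1, a surface proteoglycan of plasma cells that epithelial cells also make, higher in tumours by 2.44 ± 0.33 (161370_f_at, adjusted p = 0.00731) and, as a lower bound, by at least 2.70 ± 0.47 (96033_at, adjusted p = 0.0205). In WT thymocytes the first gave 13.4 and 17.3, with 1 value under the floor, and the second 10.7 and 9.8, both under it. The first was also higher than in IkL/L thymocytes, by 1.71 ± 0.33 (adjusted p = 0.0374), a call that 5 of 20 other settings kept. The second did not pass there, at 2.01 ± 0.47 (adjusted p = 0.0657 by limma). Against WT thymocytes the call of the first held in 15 of 20 other settings and that of the second in 11. Within lot 1 and within day 1 neither probe set passed against WT thymocytes, at 2.99 and 2.68 for the first and 2.69 and 2.67 for the second. Without either WT array neither probe set passed, with differences of 2.38 to 2.70 and adjusted p-values of 0.074 to 0.177.

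Among the precursor genes that B and T cells share, the recombinase genes had called probe sets. A call here and none among the members does not show a larger change, since Cd79b differed from WT thymocytes by -1.97 ± 0.64 (SE). Of 13 tested probe sets of the early lymphoid list, 2 were lower in tumours than in WT thymocytes and 2 than in IkL/L thymocytes, both times Rag1 (93683_at) and Rag2, which cut DNA in antigen-receptor rearrangement. Rag1 fell by 1.88 ± 0.31 on the log2 scale against WT thymocytes (adjusted p = 0.0155). A second Rag1 probe set, 161740_r_at, did not pass, at -0.73 (adjusted p = 0.66) from WT and -0.24 (adjusted p = 0.871) from IkL/L thymocytes. Rag2 fell by 3.15 ± 0.61 (adjusted p = 0.0313). Neither call held within lot 1 or day 1 or without either WT array, where Rag1 lay between -2.16 and -1.45 and Rag2 between -3.40 and -2.46. Rag2 also missed the threshold without tumour 5, at -3.09 (adjusted p = 0.065), and these were not the only settings that lost a call. Against WT thymocytes the Rag1 call held in 13 of 21 other settings and the Rag2 call in 10. Against IkL/L thymocytes the counts were again 13 and 10 of 21.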

How the data were processed

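Intensities were used as deposited by the authors in the series matrix. The sources used here do not name the software that made them; the values are linear and were taken as already scaled by the authors, since every array had a trimmed mean of 300.2. Chip lot, hybridization day and fluidics module came from the deposited scanner records, and hybridizations within 10 minutes were taken as 1 run. Of 12488 probe sets, 66 were controls, 10855 had 1 symbol, 396 several and 1237 none; no symbol changed on update through Entrez identifiers.

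Values under 16 were raised to it and log2 was taken. Probe sets above the array median on at least 2 arrays were fitted with limma 3.58.1 (lmFit and eBayes, R 4.3.3), with 1 mean per group over all 10 arrays, with Benjamini-Hochberg adjustment of p over 7172 tested probe sets. Intensities are given per array or as mean ± SD, and log2 differences ± SE. Every member probe set is named. From other lists, called probe sets (up to 4) and the 4 genes with the highest mean intensity were eligible for naming. The members and lists were chosen with earlier results of these data known. Alternatives were filters, floors, quantile normalization, a variance trend, batch blocks, within-batch fits and leaving out each array. No pair of arrays had the same value at more than 0.336% of the probe sets. The fit was tested on simulated data. The number of arrays limits the precision.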

Additional observations from a re-analysis of the deposited data

Results flagged for a closer look

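Among the 6 tumours, 2 values stood apart from the rest of their group by Dixon's test at its 95% level (the gap to the nearest tumour over the whole range), out of the 10 B-lineage probe sets with 2 or more tumours above the floor; chance alone gives such a value in about 1 of 20 groups. Igll1 99428_at was low in tumour 5, at 22.9, with a ratio of 0.783. Pax5 96993_at was low in tumour 2, at 23.8, with a ratio of 0.774. Ebf1 92535_at was high in tumour 2, at 37.8, where every other tumour was set to the floor of 16, and the ratio is then fixed at 1.0 by the floor, so it is no test. In 2 further probe sets, 102578_at of Pax5 and 92972_at of Vpreb1, all 6 tumours were at or under the floor and were not examined. The second probe sets of Igll1 and Pax5 did not single out these tumours: Igll1 99429_at was lowest in tumour 2, and Pax5 102578_at was under the floor in all tumours.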

How the results depend on the processing

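No B-lineage probe set was called in any of the 3 comparisons under any alternative that was run: 0 of 463 alternative values passed. Cd79a and Cd79b were lower in tumours than in either thymocyte group under every one of these alternatives, and Ms4a1 104173_at was lower than in IkL/L thymocytes. Cd79b ran from -3.28 to -1.70 against WT thymocytes (smallest adjusted p = 0.0854) and from -3.27 to -1.52 against IkL/L thymocytes (smallest adjusted p = 0.0981).

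Of the 463 values 36 reversed sign, 13 of them without 1 array, and the cause was not tested. Between tumours and WT thymocytes, chip lot as a block and lot 1 alone gave 0.42 for Igll1 99428_at and 0.24 for Ms4a1 104173_at, hybridization day as a block and day 1 alone gave 0.24 for Igll1, and fluidics run as a block gave 0.50 for Igll1, 0.06 for Ms4a1, -0.21 for Pax5 96993_at and -0.68 for Blnk 100771_at. Against IkL/L thymocytes, lot gave 0.08 for Igll1 and 0.10 for Pax5, day 0.03 for Pax5, and run 0.42 for Igll1 and -1.86 for Blnk 100771_at. Between IkL/L and WT thymocytes, run gave 0.25 for Cd79b and 1.18 for Blnk 100771_at, module as a block -0.26 for Blnk 100772_g_at and 0.47 for Vpreb1 161297_f_at, and quantile normalization -0.16 for Blnk 100772_g_at. Leaving out 1 array at a time gave, against WT thymocytes, tumour differences of -0.56 to 0.05 for Igll1, -0.76 to 1.60 for Pax5 and -0.34 to 2.69 for Blnk 100771_at, and, against IkL/L thymocytes, -0.93 to 0.06 for Vpreb1. Between the thymocyte genotypes the ranges were -0.56 to 0.43 for Vpreb1, -0.24 to 2.12 for Pax5, -0.45 to 0.42 for Cd79b, -1.85 to 1.18 for Blnk 100771_at and -0.03 to 0.04 for Blnk 100772_g_at. In that comparison 1 array of a group stands for the group, and its spread is taken from the other arrays.

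Because days 2 and 3 and lot 2 held only tumours, a block on lot or day gives the same difference as the fit within lot 1 or day 1, and within lot 1 tumour 6 stands for all tumours. Tumours and IkL/L arrays were never in the same run, so a run block reaches that comparison through the WT arrays. The number of probe sets called among all tested between tumours and WT thymocytes was 135, with 9 when run was a block and 221 without tumour 6, so the background share moves with these choices. Between tumours and IkL/L thymocytes it was 102, with 0 under the run block and 332 without tumour 6. No paired analysis was possible because the replicate numbers follow only the order of deposition. For 3 probe sets, of Ebf1, Pax5 and Vpreb1, the signal over background limits any statement, since nearly all their values lie at the floor.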
